A study of Homo sapiens with 65 samples.

Results

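Cardioids are self-organising, heart-like aggregates grown from human pluripotent stem cells. Described here are 6 of the 65 libraries of the study, all collected at day 4.5 of left-ventricular (LV) differentiation. In 3 of them hyaluronidase was present from day 1.5 to day 4.5 (called early), and in the other 3 from day 2.5 to day 4.5 (called late). The members were chosen by their titles alone, and each group holds 1 library of each of 3 lines titled TNNI1, WT and TNNT2. The titles also give each line its own replicate number, the same in every group, so line and replicate cannot be told apart. By the labels all come from WTC-11, a human induced pluripotent stem cell line, and have the genotype WT. What the line names stand for is not given in the sources used here. The enzyme arm has 24 libraries of the same 3 lines, and the others serve here as context: untreated cardioids of days 2.5, 4.5 and 7.5, early cardioids of days 2.5 and 7.5, and late cardioids of day 7.5, the enzyme staying on until collection. All were made alike: mesoderm was induced with Activin A, BMP4, CHIR99021, FGF2 and LY294002, cells were reseeded at day 1.5, and the patterning medium that followed held retinoic acid, insulin, C59, BMP4 and FGF2. Enzyme from day 1.5 was thus present from the reseeding on. At day 4.5 the early cardioids had been exposed for 3 days and the late ones for 2 days, so the start of the exposure and its length cannot be told apart. The dose and the source of the enzyme are not given in the sources used here.

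Hyaluronan is a long sugar polymer of the extracellular matrix, made at the cell membrane by hyaluronan synthases, of which HAS2 is the main one in the embryonic heart, and cut by hyaluronidases. It swells with water, fills the matrix between the layers of the early heart tube, and is bound by proteins such as versican (VCAN), the link protein HAPLN1 and the receptor CD44. Over the same period cardiac mesoderm becomes contractile muscle: transcription factors such as NKX2-5, TBX5, GATA4 and HAND2 are expressed, then the proteins of the sarcomere, the contractile unit, in which myosin thick filaments pull on actin thin filaments that are anchored at the Z-disc and held in register at the M-band.

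The 6 libraries held 1157056 to 1718211 counts, against 1118200 to 1958263 over the enzyme arm, and each pooled 8 cardioids. Levels are counts divided by the library's total and scaled to CPM, the usual per-library unit, always in the order TNNI1, WT, TNNT2. The labels call the cells cardiac progenitors, and markers of both progenitors and muscle were present. The progenitor factor ISL1 stood at 306, 203 and 449.9 CPM in early and 71.9, 96.8 and 122 CPM in late libraries, and GATA4 at 209.8, 273 and 279.9 and 199, 271 and 240.4 CPM. Titin (TTN), the giant spring of the sarcomere, stood at 4406, 14640 and 7171 and 21200, 18230 and 11630 CPM, and MYH6, the atrial-type myosin heavy chain, at 69.5, 770.1 and 162 and 3452, 2244 and 1576 CPM. Among the called genes, the early library of line WT was most often the early one nearest to the late group. This held in 51 of the 75 genes (68.0%) lower in early cardioids and in 13 of the 21 (61.9%) that were higher. Results below are therefore also given without it, although those genes were called on the same early-late gap. Between early libraries, chi-square per degree of freedom was 11.3 for TNNI1 and WT, 6.77 for TNNI1 and TNNT2 and 6.09 for WT and TNNT2. By that measure TNNI1 and WT lay farthest from each other, and each lay nearer to TNNT2, so it does not single out WT or TNNI1. Early and late libraries overlapped in their shares of ribosomal protein counts (6.71% ± 1.13 and 5.66% ± 0.69, SD, n = 3 each, exact permutation test, two-sided p = 0.2) and of mitochondrial counts (0.464% ± 0.0763 and 0.426% ± 0.0811, exact permutation p = 0.5). The 50 most counted genes took 13.0% ± 0.545 of early and 14.6% ± 0.802 of late counts, with no overlap (SD, n = 3 each, exact permutation p = 0.1, the smallest that 3 against 3 allows). All values come from bulk RNA, in which fewer cells of a type and less RNA per cell cannot be told apart.

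At day 4.5, genes of the sarcomere, of the actin cytoskeleton and of the collagen matrix were among those lower after the earlier start than after the later one. A smaller group of genes was higher, among them the heparan sulfate proteoglycan GPC3, the phosphatase PTPN13, the transcription factor HAND2 and dystrophin (DMD). Of 12748 genes tested, 96 (0.753%) differed between early and late libraries at an adjusted p under 0.05 (edgeR quasi-likelihood test with line as a block, Benjamini-Hochberg): 21 (0.165%) were higher and 75 (0.588%) lower in early cardioids. Each of the 96 had the same sign in all 3 lines, beside 36.2% of all genes tested, and a call with line as a block favours such genes. The 3 early and 3 late values in CPM did not overlap for all 21 higher and 71 of the 75 lower genes, beside 16.3% of all genes tested. The genes were called on these same libraries, which favours such a gap too. The size of the difference was not the same in every line. Among the 75 lower genes the median within-line log2 difference was −2.22 in TNNI1, −1.21 in WT and −1.60 in TNNT2, and among the 21 higher genes 1.82, 1.11 and 1.48. The count depended on single libraries: without the early WT library 374 genes passed (147 or 1.11% higher, 227 or 1.71% lower), 92 of the 96 among them, while 4 passed without early TNNI1, 5 without early TNNT2, 19 without late TNNI1, 16 without late WT and 29 without late TNNT2. No gene of the 96 changed sign in these 6 fits. CCDC80 and PTPN13 passed in all 6, PRKAR2B in 5, and ACTA2, FBXO40, FHL2, ITGB1BP2, KCNIP2, MLLT3 and MYOM1 in 4. PRKAR2B lost its call without early TNNI1, and those 7 without early TNNI1 or early TNNT2. Of the genes that passed in 3, GPC3 and DMD lost theirs without early TNNT2, late WT or late TNNT2. COL5A1, COL6A1 and CASZ1 did so without early TNNI1, early TNNT2 or late WT, and CACNB2, TFPI2 and PRDX1 without early TNNI1, early TNNT2 or late TNNI1. Another 55 passed in 1 fit, which for all 55 was the fit without early WT. All 19 genes that passed in 2 fits passed in that one too, and in 1 more. Of those described below, the second was the fit without late TNNT2 for MYL3, MYH7, CKM, A2M, PPP1R14C and PALLD, late TNNI1 for HAND2-AS1 and late WT for RASIP1. Without line as a block, that is, without the pairing of libraries by line, 46 genes passed, 45 of them shared. Where a gene below is lost without the block, that adjusted p is given, followed in parentheses by the range over all alternatives tried for the gene. At an unadjusted p under 0.05, which is also used below for lists, 5.11% of all genes tested were higher and 5.62% lower in early cardioids, and 50.7% and 49.3% had a positive and a negative log2 fold change.

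**Figure D1:**
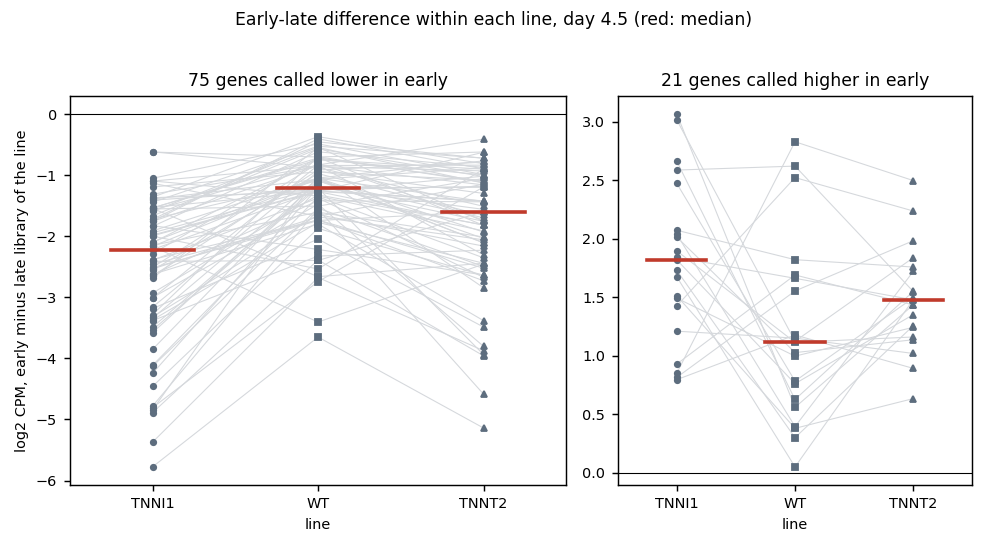
Each point is 1 gene's difference in log2 CPM between the early and the late library of the line on the horizontal axis, lines join a gene, and red bars are medians. All 75 genes lower in early cardioids lie below 0 in each line, with medians of −2.22, −1.21 and −1.60, so the difference is smallest in line WT.

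Several genes of the thick filament were far lower in early cardioids. MYL3, the ventricular-type essential myosin light chain (ENSG00000160808, chromosome 3, 46857872 to 46882169 on GRCh38), stood at 6.21, 5.19 and 1.75 CPM in early, 399.7, 81.2 and 110.3 in late and 1384, 229 and 337 in untreated libraries. Every early library lay below every late one, and every late library below the untreated library of its line (log2 fold change −5.44, SE 0.96, adjusted p 0.0189). MYBPC3, the myosin-binding protein that tunes cross-bridge cycling, stood at 23.6, 120.1 and 47.1 CPM in early and 342, 251 and 202 in late libraries, again without overlap (log2 fold change −2.12, SE 0.43, adjusted p 0.0322). MYH7, the slow myosin heavy chain, had at most 2 counts in any early library, 0.621, 0 and 1.16 CPM in early and 9.34, 6.25 and 6.41 in late libraries (adjusted p 0.0322), too few for a fold. Of the 8 thick-filament genes tested, 3 passed, all lower, and 7 of 8 had a negative log2 fold change. The list's median was −2.58, or −2.14 with genes at the floor set to their bound, beside 0.01 over all genes tested. A gene is called at the floor where no library of a group had more than 3 counts, and its bound is then computed from 3 counts. Without the early WT library 6 of the 8 passed, with MYH6, MYL4 and MYL7 added. None passed without early TNNI1, early TNNT2, late TNNI1 or late WT, and MYH7 and MYL3 did without late TNNT2. Summed over the list, early libraries held 472, 1714 and 696 CPM, late ones 6611, 3865 and 3107 and untreated ones 16740, 7279 and 7003. The call of MYL3 was kept in 2 of 6 fits that leave out 1 library, that of MYBPC3 in 1 of 6 and that of MYH7 in 2 of 6. Without the line block MYH7 did not pass, with an adjusted p of 0.168 (0.000143 to 0.576).

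On the thin filament, TNNC1, the calcium-binding troponin that switches contraction on, was the 1 of 11 tested genes that passed. It stood at 7.45, 16.4 and 11.1 CPM in early, 147, 50.0 and 67.3 in late and 679, 185 and 172 in untreated libraries, and the early and late groups did not overlap. TNNC1 had a log2 fold change of −2.88 (SE 0.60, adjusted p 0.0384). The call was kept in 1 of 6 fits. Cardiac troponin T (TNNT2) stood at 237, 1866 and 544 CPM in early and 3780, 3191 and 2039 in late libraries, with the WT library far above the other 2 early ones. It did not pass, with a log2 fold change of −1.90 (SE 0.52, adjusted p 0.105). Nor did the 2 genes of highest level in this list, tropomyosin TPM1 (−0.84, adjusted p 0.422) and the nebulin-like anchor NEBL (−0.77, adjusted p 0.0938). Of the 11 genes 10 had a negative log2 fold change. The list's median was −1.17. Without the early WT library 6 passed as lower, with a median of −1.85: ACTC1, NEBL, TMOD1, TNNC1, TNNI1 and TNNT2. Without the early library of line TNNI1 none passed and the median was −0.73. Dropping the line block gave TNNC1 an adjusted p of 0.0638 (1.77e-22 to 0.832).

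MYOM1, the myomesin that cross-links myosin filaments at the M-band, stood at 7.45, 21.6 and 8.15 CPM in early, 250.1, 118 and 144 in late and 678, 205 and 209 in untreated libraries. MYOM1 had a log2 fold change of −3.82 (SE 0.58, adjusted p 0.00728). Its call was kept in 4 of 6 fits. At the Z-disc, the muscle LIM protein CSRP3 stood at 0, 5.19 and 2.33 CPM in early and 30.2, 22.6 and 21.8 in late libraries. CSRP3 had a log2 fold change of −3.42 (SE 0.76, adjusted p 0.0476). It had no count in early TNNI1. The actin-binding protein NEXN stood at 222, 403 and 293 CPM in early and 698, 546 and 471 in late libraries. NEXN had a log2 fold change of −0.95 (SE 0.23, adjusted p 0.0482). In all 3 genes the early libraries lay below the late ones. They were the 3 of 20 listed genes that passed. Of the 20, 19 had a negative log2 fold change, and the median was −1.31, or −1.25 with genes at the floor set to their bound. Without the early WT library 8 passed, TTN, LDB3, SMYD1, FHOD3 and PDLIM5 being the added ones. Without early TNNI1 none did, with a median of −0.84. CSRP3 and NEXN were each kept in 1 of 6 fits. When lines were not paired as a block their adjusted p was 0.0638 (3.04e-09 to 0.560) and 0.0810 (0.000152 to 0.992). Of the further muscle genes described here, ITGB1BP2 and PALLD were chosen from the 96 after their values were seen. FBXO40 was among the 15 lowest. ITGB1BP2, the muscle integrin-binding chaperone melusin, stood at 8.69, 14.7 and 2.33 CPM in early and 76.2, 42.9 and 50.6 in late libraries. ITGB1BP2 had a log2 fold change of −2.84 (SE 0.45, adjusted p 0.00599). It passed in 4 of 6 fits. For the actin-binding protein PALLD the log2 fold change was −1.26 (SE 0.24, adjusted p 0.0104), kept in 2 of 6 fits. FBXO40, a muscle ubiquitin ligase subunit, had at most 3 counts in any early library. It stood at 1.86, 0 and 1.16 CPM in early and 12.9, 14.1 and 12.8 in late libraries (adjusted p 0.00728, kept in 4 of 6 fits).

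**Figure D2:**
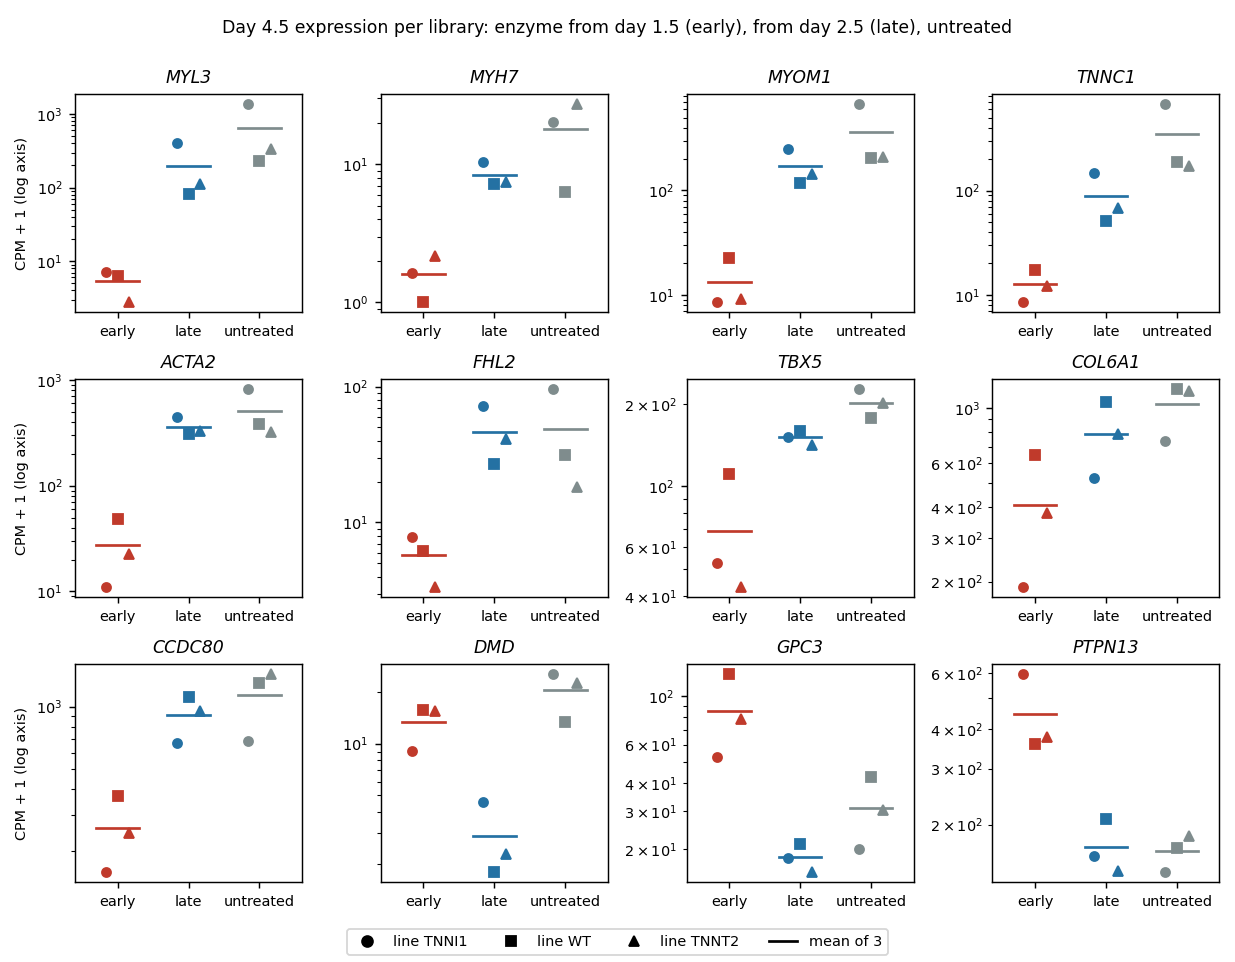
CPM plus 1 on a log axis for 12 genes, with 1 point per library (shapes give the line) and a bar at the mean of 3. For 11 of the genes the early and late points do not overlap, COL6A1 being the exception, where within each line the early point lies below the late one.

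Promoter sequences are shown for 4 of these lower genes that pass without the early WT library and without the line block, 2 of the sarcomere and 2 of the cytoskeleton, so that the letters before their start sites can be read beside their values. They are the 250 bases before a start site in RefSeq (GRCh38.p14), 5′ to 3′ on the gene's strand. Capitals mark full matches to 4 motifs on either strand. These are the CArG box (CCWWWWWWGG, W being A or T), bound by serum response factor (SRF), and the MEF2 site. The others are GATAA of GATA factors (TTATC where it lies on the other strand) and GGAATG of TEAD factors.
MYL3 (chr3:46861685-46861934, minus strand): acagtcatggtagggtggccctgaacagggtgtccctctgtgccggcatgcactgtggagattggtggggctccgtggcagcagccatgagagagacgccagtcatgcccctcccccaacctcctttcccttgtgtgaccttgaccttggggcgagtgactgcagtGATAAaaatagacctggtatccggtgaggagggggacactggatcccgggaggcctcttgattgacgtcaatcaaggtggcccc
MYOM1 (chr18:3219969-3220218, minus strand): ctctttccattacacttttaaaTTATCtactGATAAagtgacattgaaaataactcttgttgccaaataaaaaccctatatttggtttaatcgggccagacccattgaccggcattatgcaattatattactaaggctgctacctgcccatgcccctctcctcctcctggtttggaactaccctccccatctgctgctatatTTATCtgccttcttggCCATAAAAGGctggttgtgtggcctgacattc
ACTA2 (chr10:88952774-88953023, minus strand): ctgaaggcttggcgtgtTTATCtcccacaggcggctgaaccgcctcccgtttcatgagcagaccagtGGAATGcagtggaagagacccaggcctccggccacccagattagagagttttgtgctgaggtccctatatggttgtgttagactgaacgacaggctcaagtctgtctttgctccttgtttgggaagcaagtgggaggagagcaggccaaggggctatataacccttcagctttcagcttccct
FHL2 (chr2:105438514-105438763, minus strand): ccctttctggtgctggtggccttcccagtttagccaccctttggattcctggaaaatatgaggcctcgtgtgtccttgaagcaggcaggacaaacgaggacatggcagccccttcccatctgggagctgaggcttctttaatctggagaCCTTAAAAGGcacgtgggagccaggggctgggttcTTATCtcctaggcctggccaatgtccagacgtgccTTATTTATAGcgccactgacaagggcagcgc
The window of MYL3 held GATAA at base −84 from the start site. The window of MYOM1 held a CArG box at −32 and GATAA on either strand at −228, −219 and −48. ACTA2 held GATAA on the other strand at −233 and GGAATG at −183, and FHL2 a CArG box at −101, GATAA on the other strand at −66 and a MEF2 site at −31. Near matches to the CArG pattern, such as ccctatatgg and ccttgtttgg in ACTA2, were neither marked nor counted. MYL3 and ACTA2 have 2 start-site windows in the table and FHL2 has 4, and the one with most matches is shown. Over windows of 300 bases (250 before to 50 after the start), 61 of the 75 lower genes were matched, with 102 windows. A CArG box lay in 6.86% of these and in 1.29% of all 35116 windows, a MEF2 site in 4.90% and 2.99%, GATAA in 25.5% and 22.7%, and GGAATG in 12.7% and 14.0%. The 5 lower genes with a full match to the CArG pattern were AKAP12, ARHGDIB, FHL2, MYOM1 and SVIL. For the higher genes (16 matched, 28 windows) the shares were 3.57%, 0%, 42.9% and 14.3%, the CArG box being in DMD. These are counts of letters, and whether any factor binds there was not measured.

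Actin cytoskeleton genes of smooth-muscle type, many of them known SRF targets, were also among the lower ones. Smooth muscle actin ACTA2, which early cardiomyocytes also express (ENSG00000107796, chromosome 10, 88935074 to 88991339 on GRCh38), stood at 9.93, 47.5 and 21.5 CPM in early, 448, 308 and 326 in late and 824, 385 and 321 in untreated libraries. The highest early library was well below the lowest late one. ACTA2 had a log2 fold change of −3.90 (SE 0.58, adjusted p 0.00728). FHL2, a LIM-domain coactivator found at the Z-disc and in the nucleus, stood at 6.83, 5.19 and 2.33 CPM in early and 70.4, 25.8 and 40.4 in late libraries. FHL2 had a log2 fold change of −3.29 (SE 0.53, adjusted p 0.00728). Here too the groups did not overlap. Vinculin (VCL), which couples actin to adhesions, stood at 91.8, 158 and 144 CPM in early and 239, 226 and 231 in late libraries. VCL had a log2 fold change of −0.90 (SE 0.21, adjusted p 0.0402). The 3 late libraries were close to each other, and the early ones lay below them. ACTA2 and FHL2 were each kept in 4 of 6 fits and VCL in 1 of 6. With the line block dropped, VCL had an adjusted p of 0.0895 (0.00374 to 0.919). All 16 tested genes of this list had a negative log2 fold change. Their median was −0.92, against 0.01 over all genes tested. The 3 named ones passed, and without the early WT library CNN1 and LMOD1 did too. Without early TNNI1 or early TNNT2 none of the 16 passed. Summed, the list stood at 1636, 1878 and 1775 CPM in early, 3107, 2675 and 2727 in late and 4476, 3695 and 3355 in untreated libraries. Between days 2.5 and 4.5 in untreated cardioids, 4 of the 16 rose and 3 fell, beside 13.0% and 12.0% of all genes tested. In the sarcomere lists 7 of 8, 10 of 11 and 17 of 20 rose, beside the same 13.0%. From the 96, chosen after their values were seen, the small heat shock protein HSPB1, which binds actin, was lower at 389.8, 739 and 502 CPM in early and 1177, 1083 and 990.5 in late libraries. HSPB1 had a log2 fold change of −1.05 (SE 0.23, adjusted p 0.0351). The LIM protein CSRP1 stood at 8.07, 16.4 and 11.1 CPM in early and 37.4, 35.1 and 31.4 in late libraries. CSRP1 had a log2 fold change of −1.63 (SE 0.36, adjusted p 0.0351). HSPB1 and CSRP1 were each kept in 1 of 6 fits.

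Of the calcium-handling genes, SLC8A1, the sodium-calcium exchanger of the heart cell membrane, was the 1 of 11 that passed. It stood at 19.2, 188 and 43.1 CPM in early, 564, 371 and 309 in late and 1076, 709.6 and 654 in untreated libraries. SLC8A1 had a log2 fold change of −2.48 (SE 0.54, adjusted p 0.0453). The early WT library held several times the level of the other 2 early ones. The ryanodine receptor RYR2 (log2 fold change −1.58, adjusted p 0.212) and triadin TRDN (−1.67, adjusted p 0.108) did not pass. The list had 10 negative values of 11 and a median of −1.58. Without the early WT library 6 genes passed: ATP2A2, CACNA1D, PLN, RYR2, SLC8A1 and TRDN. None passed when any other early or late library was left out. CACNB2, a subunit of the L-type calcium channel, stood at 2.48, 0.864 and 2.33 CPM in early and 38.1, 10.2 and 16.0 in late libraries. CACNB2 had a log2 fold change of −3.39 (SE 0.59, adjusted p 0.00728). KCNIP2, which modulates potassium channels and was chosen after its values were seen, stood at 9.31, 20.7 and 4.07 CPM in early and 61.8, 74.9 and 55.1 in late libraries. KCNIP2 had a log2 fold change of −2.63 (SE 0.46, adjusted p 0.00728). CACNB2 was kept in 3 of 6 fits and KCNIP2 in 4 of 6. None of the 10 listed ion channel genes passed, and 2 were higher at an unadjusted p under 0.05. The gap junction gene GJC1 stood at 168, 115 and 153 CPM in early and 126, 146 and 87.2 in late libraries (adjusted p 0.878), and the potassium channel KCNH2 at 32.9, 59.6 and 68.7 CPM in early and 89.1, 57.8 and 57.1 in late libraries (adjusted p 0.832). Both overlapped between the groups. With no line block SLC8A1 had an adjusted p of 0.0512 (2.46e-27 to 0.448), and its call was kept in 1 of 6 fits.

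In energy supply, muscle creatine kinase CKM, which buffers ATP, was the 1 of 10 genes that passed. It stood at 3.10, 1.73 and 0.582 CPM in early and 43.9, 9.37 and 9.62 in late libraries. CKM had a log2 fold change of −3.47 (SE 0.77, adjusted p 0.0402). LDHB (log2 fold change −0.08, adjusted p 0.962) and HADHA, an enzyme of fatty acid oxidation (−0.38, adjusted p 0.339), did not pass. All 10 values were negative, with a median of −0.999. Without early WT 3 passed as lower, CKM, PPARGC1A and SLC25A4, with a median of −1.32. CKM and FABP3 did without late TNNT2. Without early TNNI1 none passed and the median was −0.64. Nor did any pass without early TNNT2, late TNNI1 or late WT. CKM was kept in 2 of 6 fits, and fitted without the line block its adjusted p was 0.0853 (8.11e-09 to 0.832). The natriuretic peptide NPPA, made by atrial and embryonic heart muscle, had no count in the 3 early libraries and 10.1, 0 and 0.641 CPM in late ones. Its convertase CORIN stood at 0, 0.864 and 1.16 CPM in early and 15.1, 0.781 and 3.21 in late libraries. Neither passed (adjusted p 0.329 and 0.165), and the late values came mainly from line TNNI1.

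Of the cardiac transcription factors, 1 passed in each direction. TBX5, a factor of the first heart field and left ventricle, was lower in early cardioids, at 51.5, 109.8 and 41.9 CPM in early, 150.2, 158 and 141 in late and 226, 177 and 199.6 in untreated libraries. TBX5 had a log2 fold change of −1.25 (SE 0.28, adjusted p 0.0402). The late libraries lay between early and untreated ones in every line. HAND2, which patterns the heart tube and is best known from the right ventricle and outflow tract, was higher, at 781, 629 and 1150 CPM in early, 388, 191 and 412 in late and 177, 148 and 267 in untreated libraries. HAND2 had a log2 fold change of 1.31 (SE 0.31, adjusted p 0.0499). Here the order was the opposite, with late libraries again in between. Its divergent neighbour HAND2-AS1 stood at 267, 184 and 329 CPM in early and 143, 60.9 and 79.5 in late libraries. HAND2-AS1 had a log2 fold change of 1.41 (SE 0.25, adjusted p 0.00741). None of these 3 overlapped between early and late libraries. Since the strand setting of the counting is not given in the sources used here, reads of HAND2 and HAND2-AS1 cannot be fully told apart. The same holds, among others, for ACTA2 and STAMBPL1, MYL3 and PTH1R, A2M and A2M-AS1, NEXN and NEXN-AS1, and COL18A1 and SLC19A1. It also holds for VCL and AP3M1, PTPN13 and MAPK10, DMD and TBCAP1, and FBN2 and SLC27A6. PALLD shares its place with CBR4 and DDX60L in this way, and CACNB2 with ENSG00000240291. NKX2-5 stood at 181, 351 and 276 CPM in early and 537, 368 and 421 in late libraries without overlap but did not pass. NKX2-5 had a log2 fold change of −0.73 (SE 0.38, adjusted p 0.540). Of the 18 tested genes HAND2 passed as higher and TBX5 as lower, and the median was 0.05. Without the early WT library ISL1 also passed as higher, and MYOCD was among those that passed as lower. None of the 18 passed when any other early or late library was left out. HAND2 and TBX5 were kept in 1 of 6 fits each and HAND2-AS1 in 2 of 6. When the line block was left out, HAND2 had an adjusted p of 0.134 (2.39e-07 to 0.361) and TBX5 of 0.0783 (4.46e-05 to 0.832). From the 96, chosen after their values were seen, the zinc finger factor CASZ1, known from heart development, stood at 5.59, 24.2 and 12.2 CPM in early and 40.2, 66.3 and 34.6 in late libraries. CASZ1 had a log2 fold change of −1.84 (SE 0.35, adjusted p 0.0116). The chromatin reader MLLT3 stood at 34.8, 64.0 and 37.8 CPM in early and 89.8, 151 and 85.3 in late libraries. MLLT3 had a log2 fold change of −1.30 (SE 0.21, adjusted p 0.00599). CASZ1 passed in 3 of 6 fits and MLLT3 in 4 of 6, while MLLT3 lost its call when the lines were not blocked, at 0.0569 (4.04e-05 to 0.165).

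Fibrillar and basement membrane genes that passed were lower. CCDC80, a secreted protein that binds matrix, had the smallest adjusted p of all genes (ENSG00000091986, chromosome 3, 112596794 to 112649530 on GRCh38). It stood at 158, 371 and 243 CPM in early, 668, 1118 and 956 in late and 682, 1300 and 1442 in untreated libraries. CCDC80 had a log2 fold change of −1.92 (SE 0.22, adjusted p 7.71e-05). It belongs to none of the lists, and it passed in all 6 fits that leave out 1 library and in all 15 alternatives. Of 19 fibrillar and interstitial matrix genes, 3 passed, all lower. The microfibrillar collagen chain COL6A1 stood at 189, 649 and 376 CPM in early and 522, 1055 and 783 in late libraries. COL6A1 had a log2 fold change of −1.07 (SE 0.19, adjusted p 0.00728). The groups overlapped, while each early library lay below the late one of its line. The fibril-nucleating collagen COL5A1 stood at 177, 235 and 173 CPM in early and 385, 448 and 357 in late libraries. COL5A1 had a log2 fold change of −1.07 (SE 0.19, adjusted p 0.00728). In COL5A1 every early library lay below every late one. Fibrillin FBN2 stood at 135, 226 and 160.1 CPM in early and 434, 297 and 290.4 in late libraries. FBN2 had a log2 fold change of −0.99 (SE 0.23, adjusted p 0.0402). FBN2 did not overlap either. Of 14 basement membrane genes, 2 passed. COL18A1 stood at 33.5, 89.9 and 41.9 CPM in early and 160.3, 146 and 147 in late libraries. COL18A1 had a log2 fold change of −1.57 (SE 0.35, adjusted p 0.0410). Perlecan, HSPG2, stood at 29.8, 22.5 and 22.1 CPM in early and 84.1, 55.4 and 60.3 in late libraries. HSPG2 had a log2 fold change of −1.47 (SE 0.35, adjusted p 0.0465). Neither overlapped between the groups. The fibrillar list had a median of −0.39, or −0.42 with genes at the floor set to their bound, and the basement membrane list one of −0.37. COL6A1 and COL5A1 were kept in 3 of 6 fits each, and FBN2, COL18A1 and HSPG2 in 1 of 6. In the fit with no line block the adjusted p was 0.262 (5.93e-06 to 0.262) for COL6A1 and 0.0638 (0.000184 to 0.921) for FBN2. There it was 0.0638 (1.20e-08 to 0.832) for COL18A1 and 0.0718 (5.40e-05 to 0.786) for HSPG2. None of 12 integrin genes passed. ITGB1, the subunit shared by most matrix receptors, stood at 226, 232 and 198 CPM in early and 264, 262 and 251 in late libraries (adjusted p 0.838). ITGAV stood at 80.7, 96.8 and 81.5 CPM in early and 72.6, 96.8 and 93.0 in late libraries (adjusted p 0.974). Chosen after its values were seen, the laminin chain LAMC3 was lower, at 17.4, 23.3 and 15.1 CPM in early, 57.5, 50.7 and 64.8 in late and 13.0, 33.8 and 16.7 in untreated libraries. Its log2 fold change was −1.69 (SE 0.33, adjusted p 0.0180), kept in 1 of 6 fits. The protease inhibitor TFPI2, chosen likewise, stood at 4.96, 25.1 and 12.2 CPM in early, 105, 65.6 and 66.7 in late and 33.4, 28.4 and 26.4 in untreated libraries. Its log2 fold change was −2.66 (SE 0.46, adjusted p 0.00728), kept in 3 of 6 fits. Both stood higher in late than in untreated libraries of every line.

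No gene of the hyaluronan lists passed the test. HAS2 stood at 893, 862 and 711 CPM in early, 822, 562 and 514 in late and 459, 398 and 331 in untreated libraries (log2 fold change 0.33, SE 0.27, adjusted p 0.809), so that late values reached into the early range and all 6 lay above the untreated ones. None of the 8 tested genes of hyaluronan synthesis and breakdown passed (median 0.06), and UGP2, which makes UDP-glucose, stood at 122, 214 and 185 CPM in early and 202, 189.7 and 196 in late libraries (adjusted p 0.842). HYAL2, a membrane hyaluronidase, had a log2 fold change of 0.00 (SE 0.49). Of 7 tested hyaluronan-binding genes none passed. Versican stood at 1813, 3989 and 2732 CPM in early and 2451, 2225 and 1910 in late libraries (adjusted p 0.794), the early WT library being the highest. Its log2 fold change was 0.34 with that library and −0.06 when it was left out. HAPLN1 stood at 1113, 1008 and 1619 CPM in early, 1008, 926 and 1474 in late and 427, 504 and 636 in untreated libraries (adjusted p 0.967), with every enzyme-treated library above the untreated one of its line. CD44 did not pass the filter on low counts. The median of the binding list was 0.36, or 0.09 with genes at the floor set to their bound. It was 0.86 without late TNNT2.

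Among heparan sulfate proteoglycans, GPC3, a glypican that binds growth factors, was higher in early cardioids (ENSG00000147257, chromosome X, 133535745 to 133985895 on GRCh38). It stood at 51.5, 125 and 77.4 CPM in early, 17.2, 20.3 and 14.7 in late and 19.1, 41.7 and 29.2 in untreated libraries. GPC3 had a log2 fold change of 2.19 (SE 0.39, adjusted p 0.00728). Early libraries lay above both other groups, and late libraries below the untreated ones of their lines. It was the 1 of 14 listed genes that passed. NDST1 (adjusted p 0.896) and SDC4 (149, 103 and 114 CPM in early and 91.3, 64.8 and 87.2 in late libraries, adjusted p 0.574) did not. Dystrophin (DMD), which links actin to the membrane, was higher in early than in late cardioids too, at 8.07, 14.7 and 14.6 CPM in early, 3.59, 0.781 and 1.28 in late and 24.6, 12.4 and 21.6 in untreated libraries. DMD had a log2 fold change of 2.63 (SE 0.46, adjusted p 0.00728). Its late levels were near 1 CPM in lines WT and TNNT2, so that fold rests on few counts. Late libraries were the lowest of the 3 groups, and early and untreated ones overlapped. DMD was the 1 of 12 genes of its complex that passed, while UTRN had adjusted p 0.560. GPC3 and DMD were each kept in 3 of 6 fits. PTPN13, a protein tyrosine phosphatase, stood at 596, 358 and 377 CPM in early, 159, 208 and 142 in late and 141, 168 and 183 in untreated libraries (ENSG00000163629, chromosome 4, 86594315 to 86815171 on GRCh38). PTPN13 had a log2 fold change of 1.34 (SE 0.20, adjusted p 0.00298). It passed in all 6 fits.

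The other genes higher in early cardioids had varied roles. DIO2, which activates thyroid hormone, stood at 30.4, 85.6 and 14.6 CPM in early, 3.59, 12.5 and 3.85 in late and 1.36, 4.44 and 2.78 in untreated libraries. DIO2 had a log2 fold change of 2.55 (SE 0.58, adjusted p 0.0397). CCBE1, a secreted factor of lymphatic growth, stood at 29.2, 12.1 and 13.4 CPM in early and 2.16, 4.68 and 2.56 in late libraries. CCBE1 had a log2 fold change of 2.51 (SE 0.57, adjusted p 0.0402). In both, the lowest early library lay above the highest late one. RGS2, which shortens G protein signals, stood at 192, 74.3 and 176 CPM in early and 43.1, 55.4 and 50.6 in late libraries. RGS2 had a log2 fold change of 1.48 (SE 0.32, adjusted p 0.0322). Its early WT library was the lowest of the 3. The keratin KRT19, found in simple epithelia and epicardium, stood at 518, 197 and 231 CPM in early and 131, 89.0 and 99.4 in late libraries. KRT19 had a log2 fold change of 1.44 (SE 0.34, adjusted p 0.0497). The mesenchymal cadherin CDH11 stood at 298, 158 and 289.8 CPM in early and 84.1, 126 and 117 in late libraries. CDH11 had a log2 fold change of 1.22 (SE 0.28, adjusted p 0.0402). KRT19 and CDH11 too were lowest in early WT, and in all 5 genes the early libraries lay above the late ones. CDH11 and KRT19 were the 2 of 16 genes of the epithelial-to-mesenchymal and adhesion list that passed. DIO2 passed in 0 of the 6 fits that leave out 1 library and the other 4 in 1, that without early WT. Dropping the block by line gave DIO2 an adjusted p of 0.114 (8.10e-06 to 0.595), KRT19 one of 0.119 (4.10e-09 to 0.900) and CDH11 one of 0.222 (3.35e-05 to 0.826).

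The phosphatase PTPN14, itself a brake on YAP, was the 1 of 11 YAP-related genes that passed, at 174, 83.8 and 119.9 CPM in early and 56.8, 63.2 and 74.4 in late libraries. PTPN14 had a log2 fold change of 0.93 (SE 0.22, adjusted p 0.0482). TEAD1 did not pass (adjusted p 0.900). STRA6, the membrane receptor for retinol uptake, stood at 54.0, 53.6 and 96.0 CPM in early and 17.2, 25.8 and 38.5 in late libraries. STRA6 had a log2 fold change of 1.31 (SE 0.27, adjusted p 0.0269). It was the 1 higher gene of 14 in the retinoid list, TBX5 being the lower one. FAM89A stood at 287, 203 and 197 CPM in early and 66.1, 97.6 and 85.9 in late libraries. FAM89A had a log2 fold change of 1.39 (SE 0.30, adjusted p 0.0351). The lowest early library lay above the highest late one, as it did in GFOD2. GFOD2 stood at 30.4, 23.3 and 21.5 CPM in early and 5.75, 5.46 and 5.13 in late libraries. GFOD2 had a log2 fold change of 2.16 (SE 0.52, adjusted p 0.0497). GFOD2 passed in 0 of the 6 fits that leave out 1 library, and PTPN14, STRA6 and FAM89A in 1, again that without early WT. Unblocked by line, the adjusted p was 0.0694 (0.00335 to 0.996) for PTPN14, 0.149 (0.00180 to 0.542) for STRA6 and 0.0853 (0.00103 to 0.821) for GFOD2.

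In WNT signalling 2 of 14 genes passed, both lower. WNT2, a ligand of the early heart field, stood at 2.48, 32.8 and 15.1 CPM in early, 70.4, 76.5 and 46.2 in late and 109.9, 87.9 and 92.5 in untreated libraries. WNT2 had a log2 fold change of −2.08 (SE 0.46, adjusted p 0.0482). Its late levels lay between those of early and untreated cardioids in every line. RSPO3, which enhances WNT signals, stood at 8.69, 54.5 and 11.1 CPM in early and 54.6, 176 and 49.4 in late libraries. RSPO3 had a log2 fold change of −2.14 (SE 0.47, adjusted p 0.0402). RSPO3 overlapped between the groups line WT being high in both, and WNT2 did not overlap. Both were kept in 1 of 6 fits. If lines were not blocked, their adjusted p was 0.0617 (5.11e-09 to 0.349) and 0.549 (5.92e-12 to 0.661). Chosen after its values were seen, LGR4, an RSPO receptor, was higher, at 199, 211 and 170.5 CPM in early and 80.5, 92.9 and 80.8 in late libraries. Its log2 fold change was 1.14 (SE 0.24, adjusted p 0.0304), kept in 1 of 6 fits. No gene passed among 18 of BMP and TGF-beta, 15 of FGF and ERK, and 12 of semaphorin signalling. BMP4 stood at 938, 389.8 and 733 CPM in early, 241, 154 and 293 in late and 72.3, 137 and 149.5 in untreated libraries, without overlap between early and late. BMP4 had a log2 fold change of 1.57 (SE 0.65, adjusted p 0.361). Its target ID2 stood at 629.9, 462 and 668 CPM in early and 436, 375 and 447 in late libraries (adjusted p 0.372). The ERK feedback phosphatase DUSP6 stood at 987, 1334 and 1016 CPM in early, 643, 961 and 748 in late and 324, 587 and 308 in untreated libraries (adjusted p 0.528). FGFR1, a receptor of FGF ligands, stood at 312, 171 and 272 CPM in early and 148, 170.2 and 163 in late libraries (adjusted p 0.217). The FGF list had 2 negative values of 15 and a median of 0.56. Neuropilins NRP1 and NRP2 had adjusted p 0.819 and 0.870.

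Among the 21 higher genes, some are known from cell division or DNA replication, while no gene of the mitosis and replication lists passed. TTK, a kinase of the spindle checkpoint, stood at 49.0, 14.7 and 23.3 CPM in early and 7.19, 7.81 and 7.05 in late libraries. TTK had a log2 fold change of 1.87 (SE 0.42, adjusted p 0.0368). CENPK, a kinetochore protein, stood at 44.7, 20.7 and 17.5 CPM in early and 10.8, 5.46 and 5.13 in late libraries. CENPK had a log2 fold change of 1.88 (SE 0.41, adjusted p 0.0334). Early TNNI1 was the highest library for both. DEPDC1 stood at 62.1, 14.7 and 40.2 CPM in early and 5.75, 9.37 and 13.5 in late libraries. DEPDC1 had a log2 fold change of 1.96 (SE 0.46, adjusted p 0.0459). FAM111B, a protease tied to DNA replication, stood at 27.3, 6.91 and 20.4 CPM in early and 2.88, 3.90 and 5.77 in late libraries. FAM111B had a log2 fold change of 2.00 (SE 0.46, adjusted p 0.0402). For these 4 early and late libraries did not overlap, and each was kept in 1 of 6 fits. All 20 listed mitosis genes had a positive log2 fold change, beside 50.7% of all genes, and 17 were higher at an unadjusted p under 0.05, beside 5.11%. Their median was 1.00. Summed, they stood at 5435, 1480 and 3240 CPM in early, 1417, 1383 and 1865 in late and 2208, 3024 and 3840 in untreated libraries. Early TNNI1 and TNNT2 lay above all late libraries, while early WT lay within them. Without early WT 12 of the 20 passed as higher, beside 1.11% of all genes in that fit, and without any 1 of the other 5 libraries none did. Without early TNNI1 their median was 0.53, with 2 negative values. TOP2A had an adjusted p of 0.199 and CENPF of 0.124. Of the 23 replication genes 0 passed, 19 had a positive log2 fold change and 11 were higher at an unadjusted p under 0.05, again beside 50.7% and 5.11%. Their median was 0.75, and 5 passed without early WT. Without early TNNI1 none passed, the median was 0.36 and 7 values were negative. CCND2 stood at 439, 157 and 214 CPM in early and 118, 134 and 138 in late libraries (adjusted p 0.121), and RRM1 had an adjusted p of 0.673. By DESeq2, 4 mitosis and 0 replication genes passed as higher, beside 0.596% of all genes. Left without the line block, FAM111B had an adjusted p of 0.0512 (0.00417 to 0.918) and DEPDC1 of 0.0512 (5.50e-05 to 0.992).

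None of the 20 glycolysis and hypoxia genes passed. All 20 had a negative log2 fold change, beside 49.3% of all genes, 10 were lower at an unadjusted p under 0.05, beside 5.62%, and the median was −0.65. The enolase ENO1 stood at 1339, 1423 and 1300 CPM in early and 2703, 1824 and 2464 in late libraries without overlap. ENO1 had a log2 fold change of −0.79 (SE 0.21, adjusted p 0.0745). GAPDH stood at 3201, 2807 and 3440 CPM in early and 4781, 3273 and 4128 in late libraries (adjusted p 0.880). Without early WT 3 passed as lower: ENO1, PDK1 and PFKFB3. Leaving out any other early or late library let none pass. None of 17 genes of sterol and fatty acid synthesis passed, and 1 was lower at an unadjusted p under 0.05 (SCD and FASN had adjusted p 0.711 and 0.972). None of 12 stress and apoptosis genes passed, also at an unadjusted p under 0.05 (HSPA5 and ATF4 had adjusted p 0.881 and 0.918).

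**Figure D3:**
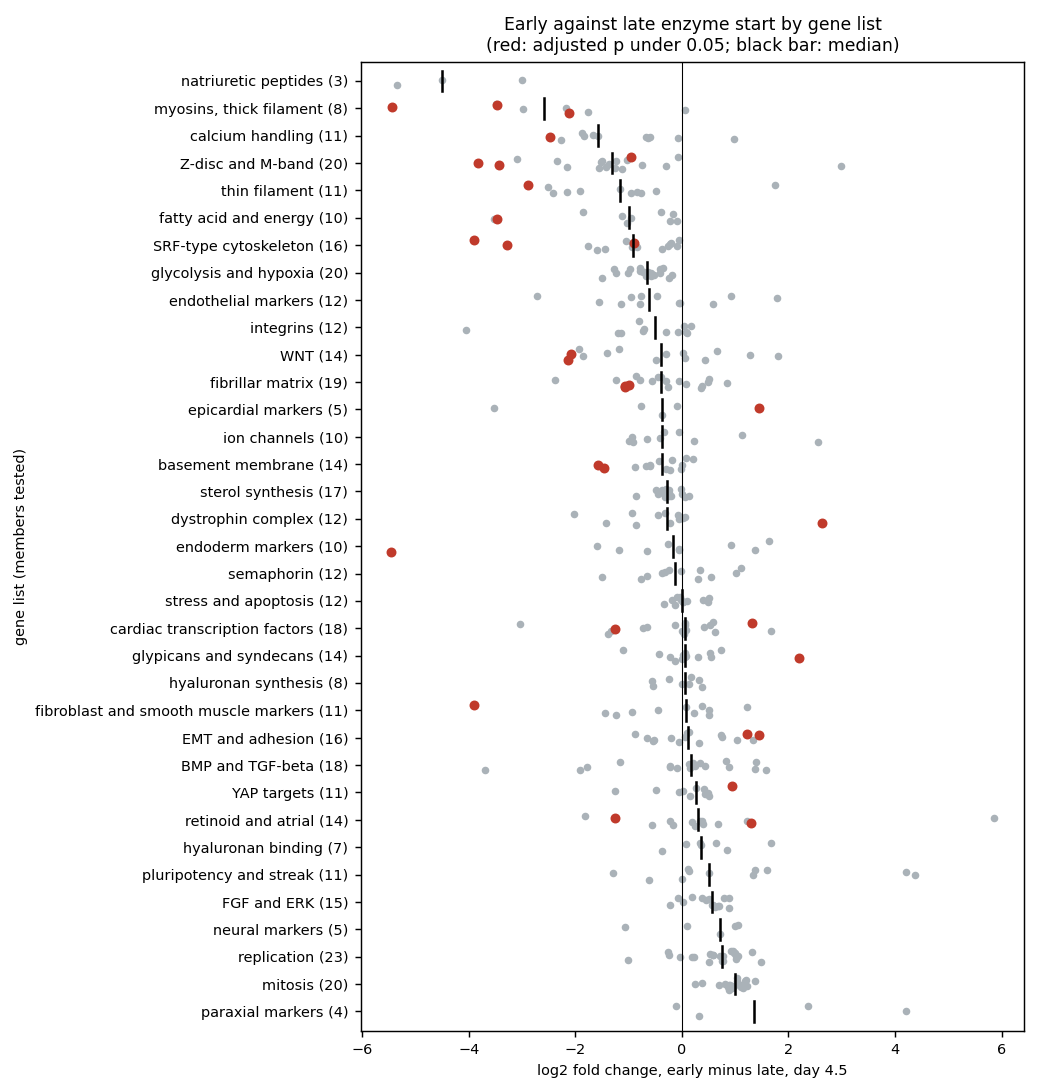
Each point is 1 tested gene, placed by its log2 fold change of early over late at day 4.5 within its list (1 line of the plot per list, with the number tested), red where the adjusted p is under 0.05, and black bars are list medians. The medians of the sarcomere, calcium and cytoskeleton lists lie left of 0 and that of the mitosis list, with no red point, right of it. Some of the farthest points belong to genes at the floor in 1 group, whose fitted values are no measure of size.

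The remaining lowest genes were varied. AHNAK2, a large scaffold protein, stood at 2.48, 9.51 and 0 CPM in early and 103, 30.4 and 34.0 in late libraries. AHNAK2 had a log2 fold change of −3.92 (SE 0.77, adjusted p 0.0302). A2M, a secreted protease inhibitor, had no count in the 3 early libraries and 4.31, 7.03 and 1.28 CPM in late ones. Against the limit of 3 counts per library it was at least 2.04-fold lower (adjusted p 0.0351). The pseudogene ENSG00000257604 also had none, against 12.9, 3.12 and 5.13 CPM, at least 3.42-fold lower (adjusted p 0.0269). In 4 others no early library had more than 3 counts, so no fold is given. The phosphatase inhibitor PPP1R14C stood at 0, 0.864 and 1.75 CPM in early and 38.8, 14.1 and 5.77 in late libraries (adjusted p 0.0327). RASIP1, known from endothelium, stood at 1.24, 0.864 and 0 CPM in early and 8.63, 3.90 and 21.2 in late libraries (adjusted p 0.0322). In both, 1 early library had no count. The ubiquitin ligase MARCHF3 stood at 0.621, 1.73 and 0 CPM in early and 5.75, 13.3 and 7.69 in late libraries (adjusted p 0.0402). The kinase PRKCB stood at 1.24, 0.864 and 0.582 CPM in early and 12.9, 6.25 and 10.3 in late libraries (adjusted p 0.0402). RASIP1, A2M and PPP1R14C were kept in 2 of 6 fits and the others in 1. Taking the line block out gave 0.103 (1.53e-21 to 0.826) for AHNAK2, 0.0994 (0.000401 to 0.438) for MARCHF3 and 0.0522 (0.000676 to 0.576) for PRKCB as adjusted p. Among the 96, chosen after its values were seen, PRKAR2B, a regulatory subunit of protein kinase A, stood at 27.9, 37.2 and 42.5 CPM in early and 80.5, 107 and 87.2 in late libraries. PRKAR2B had a log2 fold change of −1.40 (SE 0.22, adjusted p 0.00599). It passed in 5 of 6 fits.

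Markers of other cell types were measured beside these differences. The pluripotency and primitive streak list held no gene that passed (11 tested, median 0.50, or 0.12 with genes at the floor set to their bound). The median was 0.18, 0.16 and 0.11 without early TNNI1, early TNNT2 or late TNNI1, and 1.00 and 1.03 without early WT or late TNNT2. LHX1, a factor of early mesoderm, stood at 1627, 189 and 899.8 CPM in early, 314, 98.3 and 376 in late and 152, 62.2 and 68.8 in untreated libraries. LHX1 had a log2 fold change of 1.59 (SE 0.37, adjusted p 0.0524). Without the early WT library LHX1 passed as higher, and LIN28B had an adjusted p of 0.934 with all libraries. No gene of the list passed when any other early or late library was left out. Summed, the list stood at 2224, 737 and 1491 CPM in early and 760.5, 599.5 and 963 in late libraries. For paraxial mesoderm, 4 of 16 genes were tested and none passed. The sums were 252, 41.5 and 86.1 and 25.2, 49.2 and 50.0 CPM. FOXC1 gave 197, 23.3 and 51.2 and 5.03, 19.5 and 25.6 CPM of this (adjusted p 0.334), DLL3 had an adjusted p of 0.983, and MSGN1, MYOD1 and MYOG had no count. In the endoderm list, 10 of 18 were tested and A2M was the 1 gene that passed, as lower. Its sums were 447, 85.6 and 208 and 226, 111 and 116 CPM. GATA3, also a gene of trophoblast and other tissues, stood at 352, 56.2 and 146 CPM in early and 70.4, 39.8 and 60.9 in late libraries (adjusted p 0.155). APOA1 stood at 8.07, 12.1 and 14.6 CPM in early and 53.9, 23.4 and 30.1 in late libraries (adjusted p 0.0938), and AFP and SERPINA1 had no count. Early TNNI1 was thus the highest of the 6 libraries for streak, paraxial and endoderm sums as for mitosis. The part of such cells in the results was not tested.

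Endothelial markers (12 of 17 tested, none passed) summed to 813, 608 and 640.2 and 554, 526 and 626 CPM. FLT1 stood at 552, 366 and 405 CPM in early and 279, 267 and 309 in late libraries (adjusted p 0.202), and KDR had an adjusted p of 0.986. Epicardial markers (5 of 13 tested) summed to 608, 334 and 349 and 277, 226 and 220.5 CPM. KRT19 was the 1 that passed, LRRN4 had an adjusted p of 0.911, and UPK3B and MSLN had no count. Fibroblast and smooth muscle markers (11 of 13 tested, ACTA2 lower) summed to 1514, 2769 and 2237 and 2278, 2741 and 2852 CPM. RGS5 and COL1A1 had adjusted p 0.579 and 0.602. Neural markers (5 of 14 tested, none passed) summed to 335, 700.1 and 361 and 1112, 877 and 619 CPM. NES, an intermediate filament that muscle precursors also express, gave most of it, at 297, 635 and 329 CPM in early and 1093, 819.6 and 590.4 in late libraries (adjusted p 0.110). OTX2 had an adjusted p of 0.978, and PAX6 and SOX1 had no count. A count of 0 is not proof of absence here, because CYP51A1, a sterol enzyme that most cells use, had none either.

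The untreated cardioids show which way these genes go over the days in which the treatments differ, and they share no library with the comparison. Between days 2.5 and 4.5, 1651 genes (13.0%) rose and 1535 (12.0%) fell in untreated cardioids. Of the 75 genes lower in early cardioids, 58 (77.3%) were among those that rose and 2 among those that fell. Of the 21 higher genes, 14 (66.7%) were among those that fell and 5 among those that rose. MYL3, for instance, stood at 6.64, 12.5 and 7.85 CPM in untreated cardioids at day 2.5 and 1384, 229 and 337 CPM at day 4.5, and early cardioids of day 4.5 (6.21, 5.19 and 1.75 CPM) were near the day 2.5 level. CCDC80 went from 33.2, 49.2 and 94.2 to 682, 1300 and 1442 CPM. KRT19 went from 1204, 1303 and 1590 down to 300.3, 174 and 246 CPM, and PTPN13 from 432, 544 and 537 to 141, 168 and 183 CPM. Not all genes followed. HAND2 rose in untreated cardioids, from 48.5, 54.5 and 70.7 to 177, 148 and 267 CPM (log2 fold change 1.62, SE 0.33, adjusted p 0.00111), and was higher still in early cardioids. HAND2-AS1, GPC3, DMD and SSX2IP were the other 4 higher genes that rose, and COL5A1 and FBN2 the 2 lower genes that fell (log2 fold change −0.54, SE 0.19, adjusted p 0.0371 and log2 fold change −0.85, SE 0.23, adjusted p 0.00707). Across all 12748 genes the 2 log2 fold changes had a Pearson r of −0.474 and a Spearman rho of −0.339, given as a description, since genes are not independent and low counts scatter in both.

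**Figure D4:**
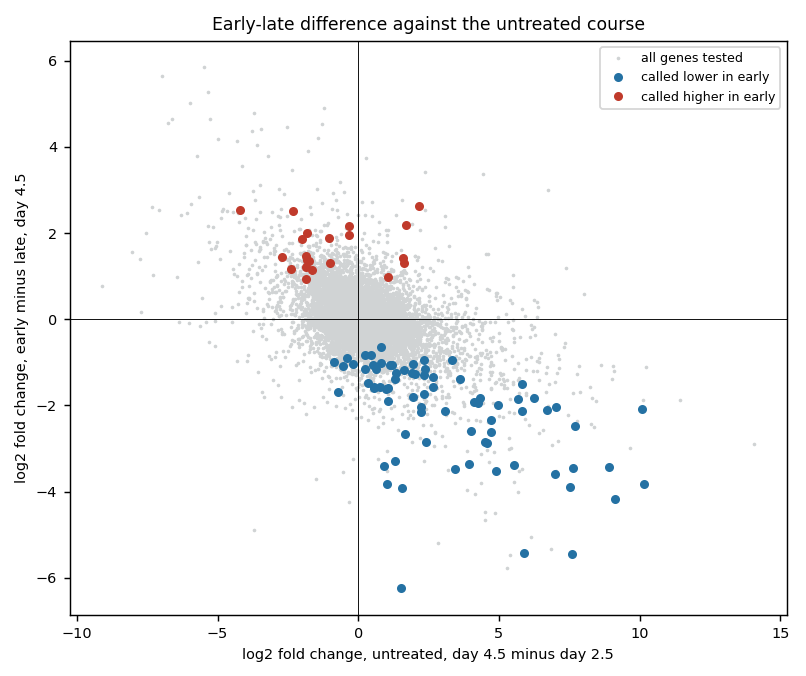
Each point is 1 of 12748 genes, with the log2 fold change from day 2.5 to day 4.5 in untreated cardioids on the horizontal axis and that of early over late at day 4.5 on the vertical axis. Most of the 75 lower genes (blue) lie right of 0, 58 of them called as rising, and 14 of the 21 higher genes (red) are called as falling.

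Set beside untreated cardioids of day 4.5, both treated groups differed, the early one in more genes. Early against untreated gave 585 genes (4.59%, 190 higher and 395 lower) and late against untreated 55 (0.431%, 17 higher and 38 lower), and since both share the untreated libraries these counts are only set side by side. Leaving out 1 library took the 585 to 247, 423 or 349 (untreated TNNI1, WT or TNNT2) and to 269, 601 or 267 (early TNNI1, WT or TNNT2). It took the 55 to 24, 30 or 13 (untreated TNNI1, WT or TNNT2) and to 13, 15 or 3 (late TNNI1, WT or TNNT2). Without the line block the latter was 28. For the named genes the levels took several orders. In MYL3, MYOM1, TNNC1, MYBPC3 and SLC8A1 the late libraries lay between early and untreated ones in every line. ACTA2 was not called different from untreated in late cardioids (log2 fold change −0.55, SE 0.48, adjusted p 0.914) and was lower in early ones (log2 fold change −4.45, SE 0.59, adjusted p 0.000277). CCDC80 did the same (late log2 fold change −0.31, SE 0.21, adjusted p 0.821, early log2 fold change −2.23, SE 0.22, adjusted p 5.18e-06). DMD was the reverse: late cardioids were lower than untreated ones (log2 fold change −3.36, SE 0.44, adjusted p 0.000882), and early ones were not called different (log2 fold change −0.73, SE 0.33, adjusted p 0.276). GPC3 had log2 fold changes of 1.41 in early (adjusted p 0.0258) and −0.78 in late cardioids (adjusted p 0.684).

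By day 7.5, with the enzyme still present, the gap between starts held fewer called genes. Early against late libraries of that day differed in 13 genes (0.102%), 7 higher and 6 lower, of which GPC3 and AKAP12 were also among the 96 of day 4.5. Single libraries moved that count from 1 (without late TNNI1) to 34 (without early WT), with 3 without early TNNI1, 4 without early TNNT2, 5 without late WT and 6 without late TNNT2, and without the line block it was 1. GPC3 stood at 125, 87.0 and 99.7 CPM in early, 6.23, 11.4 and 12.4 in late and 37.5, 34.5 and 21.5 in untreated cardioids, again without overlap (log2 fold change 3.35, SE 0.41, adjusted p 0.000291). AKAP12, a scaffold of protein kinase A, was lower on both days (day 4.5 log2 fold change −1.06, SE 0.25, adjusted p 0.0459, day 7.5 log2 fold change −1.27, SE 0.25, adjusted p 0.0416). It was kept in 1 of 6 fits at day 4.5, and without the line block its adjusted p there was 0.119 (3.63e-06 to 0.900). NPPA stood at 2.44, 0.719 and 0.697 CPM in early, 313, 9.39 and 70.7 in late and 328, 72.1 and 399 in untreated cardioids (adjusted p 0.00675). The ephrin EFNB2, a ligand of arterial endothelium, stood at 134, 119 and 250.2 CPM in early and 24.2, 32.9 and 67.5 in late cardioids (log2 fold change 2.03, adjusted p 0.00499). LMO2, a factor of blood and endothelial cells, stood at 107, 71.2 and 67.6 and 6.92, 14.1 and 30.8 CPM (log2 fold change 2.37, adjusted p 0.00675). AKAP12, EFNB2 and LMO2 were named after their values were seen. Of these day 7.5 calls, GPC3 alone was kept without the line block and in all 6 fits that leave out 1 library of that day. Unblocked, the day 7.5 adjusted p was 0.207 (2.65e-08 to 0.442) for AKAP12, 0.324 (1.84e-34 to 0.391) for NPPA, 0.319 (5.23e-10 to 0.319) for EFNB2 and 0.107 (2.64e-08 to 0.115) for LMO2. Fits without 1 library kept AKAP12 in 1 of 6 (that without late WT), EFNB2 in 4 (lost without late TNNI1 or late WT), LMO2 in 3 (lost without either TNNI1 library or late WT) and NPPA in 3 (lost without either TNNI1 library or early TNNT2). Short of the threshold, signs were largely kept: 72 of the 75 lower genes (96.0%) had a negative log2 fold change at day 7.5, beside 48.6% of all genes, and 17 of the 21 higher genes (81.0%) a positive one, beside 51.4%. The days share no library, and across all genes their log2 fold changes had a Pearson r of 0.276 and a Spearman rho of 0.200, as a description.

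Whether the gap itself differed between the days was tested as an interaction, which 2 genes (0.0157%) passed, with 661 at an unadjusted p under 0.05. CCDC80 stood at 387, 625 and 507 CPM in early, 392, 605 and 514 in late and 242, 595 and 441 in untreated cardioids at day 7.5, with the groups overlapping, and its difference of day 4.5 minus day 7.5 was −1.86 (SE 0.30, adjusted p 0.0150). DMD was higher in early than late cardioids at day 4.5 but stood at 43.2, 28.8 and 52.3 CPM in early, 80.3, 34.9 and 82.5 in late and 209, 169.7 and 231 in untreated cardioids at day 7.5 (difference 3.33, SE 0.54, adjusted p 0.0150). Without the line block the adjusted p was 0.830 (5.91e-08 to 0.830) for CCDC80 and 0.166 (5.09e-05 to 0.309) for DMD, so that 0 genes passed (545 at an unadjusted p under 0.05) and DESeq2 gave 10. Leaving out 1 library of day 4.5 kept CCDC80 in 1 fit of 6 (that without early WT) and DMD in 3. The count was 21 without early WT, 1 without early TNNI1 or late TNNI1, and 0 without late WT, early TNNT2 or late TNNT2 (582, 590 and 647 at an unadjusted p under 0.05). For MYL3, whose day 7.5 levels were 496, 380.4 and 1187 CPM in early and 2165, 815 and 1472 in late cardioids, the interaction did not pass (adjusted p 0.509). ACTA2 stood at 385, 582 and 496 and 1294, 1225 and 1568 CPM (interaction adjusted p 0.717).

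**Figure D5:**
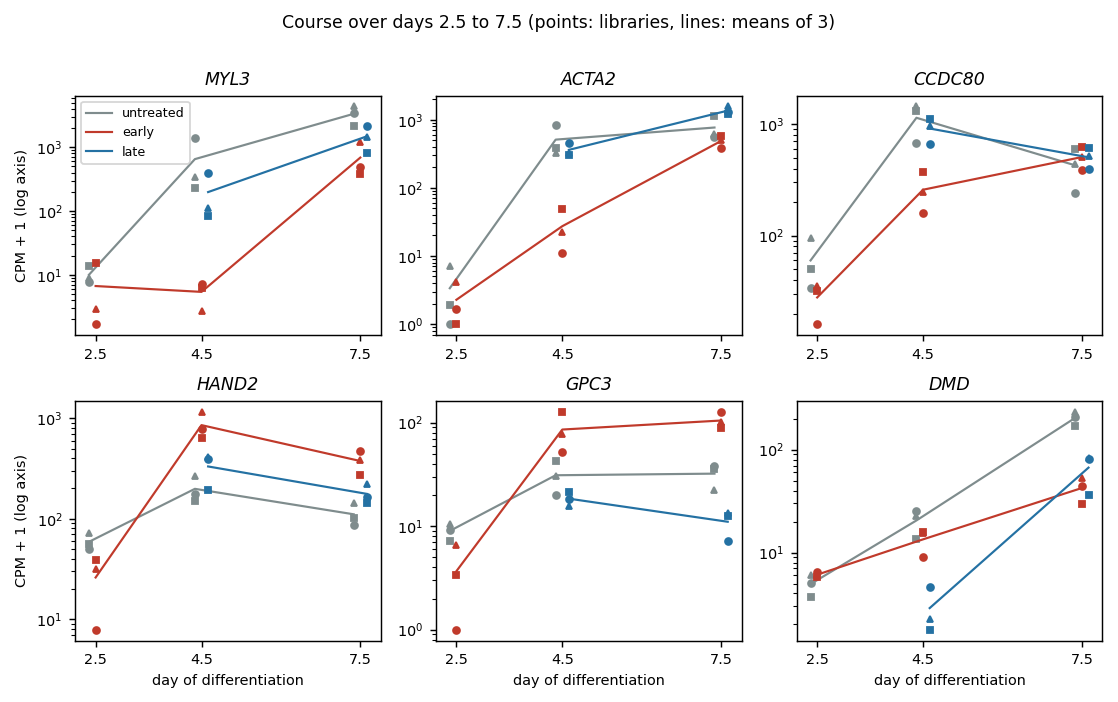
CPM plus 1 on a log axis against the day of differentiation for 6 genes in untreated, early and late cardioids, with 1 point per library (circles TNNI1, squares WT, triangles TNNT2) and lines through the means of 3. The early and late points of CCDC80 meet at day 7.5, those of GPC3 stay apart, and for DMD the late points lie lowest at day 4.5 only.

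At day 2.5 only early cardioids had met the enzyme, for 1 day, and they differed from untreated ones in 228 genes, 56 (0.439%) higher and 172 (1.35%) lower. This comparison was added after the data were seen and shares no library with that of day 4.5. Without the line block it gave 146 genes, and leaving out 1 library gave 104 (without untreated TNNT2) to 309 (without early WT), with 125 without early TNNI1, 146 without early TNNT2, 174 without untreated WT and 197 without untreated TNNI1. Of the 75 genes lower at day 4.5, 6 were already lower at day 2.5 and 1 was higher, and of the 21 higher genes 4 were lower and none was higher. CCDC80, TBX5 and NEXN were among the 6, CCDC80 standing at 15.1, 31.2 and 34.4 CPM in early and 33.2, 49.2 and 94.2 in untreated cardioids (log2 fold change −1.18, SE 0.25, adjusted p 0.00946). TBX5 stood at 2.75, 7.19 and 1.87 and 45.5, 59.0 and 46.5 CPM (log2 fold change −3.75, SE 0.41, adjusted p 1.18e-05). The 4 higher genes that were lower at day 2.5 were LGR4, RGS2, DIO2 and CCBE1, with RGS2 at 17.9, 28.0 and 26.2 and 66.9, 52.8 and 85.8 CPM (log2 fold change −1.53, SE 0.34, adjusted p 0.0129). HAND2 stood at 6.86, 37.5 and 30.6 and 48.5, 54.5 and 70.7 CPM (log2 fold change −1.24, SE 0.37, adjusted p 0.104), so the order seen at day 4.5 was not present at day 2.5. GPC3 stood at 0, 2.40 and 5.62 and 8.17, 6.26 and 9.53 CPM (log2 fold change −1.60, SE 0.59, adjusted p 0.236). Across all genes the log2 fold changes of the 2 comparisons had a Pearson r of 0.118 and a Spearman rho of 0.0875, as a description.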

How the data were processed

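All 65 libraries were made with the QuantSeq 3′ FWD kit, in which each read comes from the 3′ end of a transcript, and each pooled 8 cardioids, with at least 3 biological replicates per condition per the labels. The deposited table holds raw counts per gene, which the authors made with featureCounts of Subread 1.6.2 on hg38 (GRCh38), per the submitters' processing notes. The aligner, strand setting and annotation are not given in the sources used here. The reads carry no molecular identifiers that the sources mention, so counts are not independent molecules. 4 columns matching no listed sample were not used. IDs were given positions from GENCODE 29 (GRCh38, 58735 IDs) and current symbols (58207 IDs). Counts of the 24 enzyme-arm libraries were fitted with edgeR 4.0.16 (limma 3.58.1, R 4.3.3; TMM, filterByExpr with a minimum count of 10, quasi-likelihood test, two-sided, 12748 genes, 14 residual degrees of freedom) with group and line as terms, the line given by the titles. The unit of a level is CPM, computed from the deposited counts. Log2 fold changes are those of the fit, and differences within a line use log2 CPM with a prior count of 2. Within lines, deviations of early and late libraries correlated at 0.137 to 0.239, all 3 above 0.1 (15 of 21 same-line pairs in the arm), so the line was kept as a block. P-values rest on the spread left within groups after line is taken out, estimated over all 24 enzyme-arm libraries. The libraries of a group differ by line. The fit was also tested on simulated data. Exact permutation tests of 3 against 3 cannot go below 0.1. Alternatives were no line block, RLE scaling, DESeq2 1.42.0, no filter, fewer libraries in the fit, and leaving out each library or line.

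The members, the 35 gene lists and the comparisons were chosen with earlier results of these data known. Named genes are up to 15 with the highest and 15 with the lowest log2 fold change among those with an adjusted p under 0.05, a size of at least 1 and 1 sign in the 3 lines; up to 6 called members of each list by p, and the 2 of highest mean level where fewer than 2 passed; and HAS2, HYAL2, CD44, VCAN, GPC3, MYL3, DMD, A2M, CCBE1, PPP1R14C, TNNT2 and NKX2-5. Genes outside this rule are said to be chosen after their values were seen. Levels of ISL1, GATA4, TTN and MYH6, given as a check of the labels, were also chosen so.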

Additional observations from a re-analysis of the deposited data

Results flagged for a closer look

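CCDC80 and DMD stand out because their early-late difference changed between days 4.5 and 7.5, by the tested interaction given above. For CCDC80 the log2 difference at day 4.5 minus that at day 7.5 was −1.86 (SE 0.30), with log2 fold changes of −1.92 at day 4.5 and −0.06 at day 7.5. For DMD it was 3.33 (SE 0.54), with 2.63 at day 4.5 and −0.70 at day 7.5. Both had an edgeR adjusted p of 0.0150. Neither passed without the line block.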

How the results depend on the processing

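The 96 genes of day 4.5 became 46 with no replicate block, 255 by DESeq2 (all 96 among them), 463 with no filter on low counts (28388 tested, 40.0% higher against 21.9% with the filter), 168 in a fit of the 9 libraries of day 4.5, and 4 to 374 when 1 library was left out. Without line TNNI1, WT or TNNT2 in both groups they became 3, 186 and 1. RLE scaling gave 92 and a fit of the 6 libraries 143. The day 7.5 count of 13 became 1 with no replicate block, 63 by DESeq2, 188 with no filter, and 1 to 34 without 1 library. The 2 interaction genes became 0, 10, 71 and 0 to 21. Early against untreated at day 4.5 (585) ranged from 247 to 601 without 1 library. Late against untreated (55) became 28 with no replicate block, 132 by DESeq2, 253 with no filter, and 3 to 30 without 1 library. Early against untreated at day 2.5 (228) became 146 with no replicate block, 396 with no filter and 104 to 309 without 1 library. Why these counts moved was not tested, and runs without 1 library have fewer samples, the lone lines being assumed to vary like the others.

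Among genes near 0, sign changed on leaving out 1 library for GJC1 (−0.045 to 0.43), VCAN (−0.058 to 0.64), HAPLN1 (−0.027 to 0.19), ITGAV (−0.13 to 0.0092), FASN (−0.0070 to 0.13), KDR (−0.28 to 0.091), OTX2 (−0.092 to 0.21), DLL3 (−0.46 to 0.28) and HYAL2 (−0.32 to 0.30). Leaving out line TNNI1 turned KCNH2 (0.12), UGP2 (0.010), FASN (−0.010) and OTX2 (−0.096), line WT DLL3 (0.10) and HYAL2 (−0.30), and line TNNT2 GJC1 (−0.0036), ITGAV (0.015) and KDR (0.020). HYAL2 also turned under RLE (−0.0026), no filter (−0.0070), and fits of 6 (−0.0022) or 9 libraries (−0.018). None of these genes was called. The blocked and unblocked values of calls that the block decides stand in the report. At these depths a gene near 1 CPM rests on 1 or 2 counts.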
